A study of Mus musculus with 8 samples.

Results

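The data set described here is the adhesion of thymocytes to wild-type (WT) mTECs, measured by RNA-Seq in 4 of the 8 libraries of the series: 2 libraries of mTECs before adhesion and 2 after adhesion. The members were chosen from the sample titles, which state the genotype and whether thymocytes were added. mTEC 3.10 is a line of murine medullary thymic epithelial cells derived from C57BL/6 mice and was used at passage 2. For adhesion, thymocytes freshly taken from C57BL/6 thymi were laid over the mTEC monolayer at 50 thymocytes per mTEC for 12 h. Non-adherent thymocytes were then washed off with PBS and the mTECs were detached with trypsin, so no sort separated the 2 cell types before RNA extraction. Both libraries before adhesion and replicate 1 after adhesion came from mTECs labelled as cultured for 12 h, whereas replicate 2 after adhesion was labelled as cultured for 24 h. For replicate 2, culture time and adhesion therefore cannot be told apart. The other 4 libraries are of E6, 1 clone of the same line carrying mutations that CRISPR-Cas9 introduced into Aire, before and after adhesion with 2 libraries each. Its genotype label is Aire +/-, whereas the study reports mutations in both Aire alleles and treats the clone as a knockout. In E6 the culture time was matched between conditions (replicate 1 at 24 h and replicate 2 at 12 h). Labelled culture times differ within both E6 pairs and within the WT pair after adhesion. No label says that the 2 WT libraries before adhesion came from separate cultures. The p-values below measure the spread between these libraries, which may be technical and in E6 includes the difference between 24 h and 12 h.

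Medullary thymic epithelial cells display self-antigens to developing T cells, and thymocytes signal back to them, an exchange known as thymic crosstalk. Ligands of the TNF superfamily carried by thymocytes, among them RANK ligand, CD40 ligand and lymphotoxin, act on receptors of mTECs and release NF-kB dimers from their inhibitors. The classical pathway frees dimers of RelA and c-Rel and is switched off by IkB proteins and by the ubiquitin-editing enzyme A20, whose genes are themselves NF-kB targets. The alternative pathway works through the kinase NIK, the processing of the p100 precursor encoded by Nfkb2, and RelB. In the thymus the alternative pathway is known for its part in the maturation of mTECs that express Aire.

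The counts assigned to genes in the 4 WT libraries ranged from 13506610 to 20145154, a depth at which the 3-count floor corresponds to 0.145 to 0.221 CPM (counts scaled to the TMM-adjusted library size). Replicate 1 after adhesion stood apart. The share of its reads assigned to genes was 66.7% and the share on no gene 15.2%, while the other WT libraries had 76.2% to 78.8% and 8.26% to 10.3%. Its differences from the libraries before adhesion followed base composition and transcript length. Over genes with less than 42% GC the median log2 difference was 0.416, over genes with at least 54% GC it was -0.418, and across 9754 genes the slope was -0.473 per 10% GC. The slope was 0.113 in replicate 2 after adhesion and -0.08 between both libraries before adhesion. The mean absolute log2 difference between the libraries before adhesion was 0.152. It was 0.525 and 0.549 from replicate 1 after adhesion, and 0.241 and 0.224 from replicate 2. Each library after adhesion is therefore given apart throughout. Its test against the libraries before adhesion takes the spread from the other conditions, since 1 library has none of its own. Both tests share the same 2 libraries before adhesion.

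**Figure D1:**
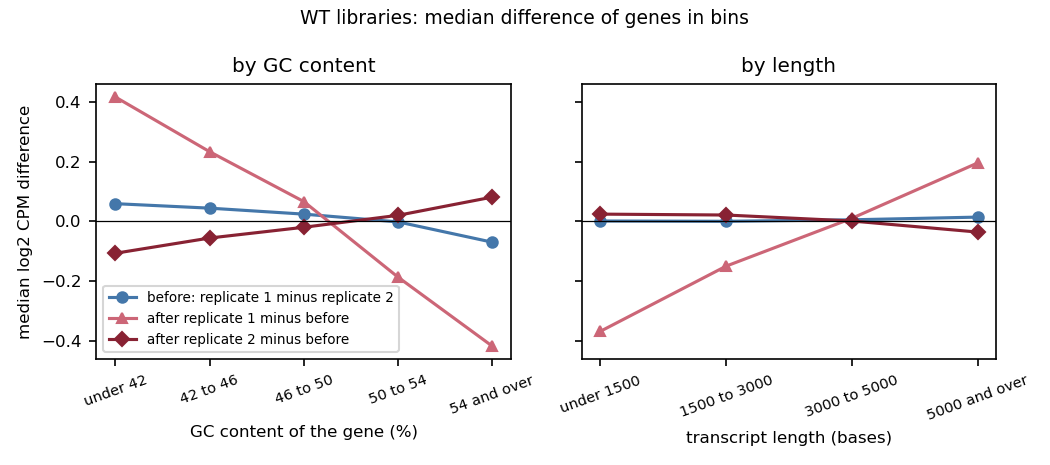
Median log2 difference of each WT library after adhesion from the mean before adhesion, and between both libraries before adhesion, by GC content (left) and by transcript length (right) of the genes. Replicate 1 falls from 0.416 in genes under 42% GC to -0.418 in genes of at least 54% GC, while replicate 2 stays near 0.

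RNA of thymocyte markers was higher in both WT libraries after adhesion. Of 33 genes listed as thymocyte markers 23 were found in the count tables, and their summed level was 6.98 and 8.03 CPM before adhesion against 42.3 and 30.6 CPM after adhesion. Gata3, a transcription factor that the mTECs also expressed, held most of the sum before adhesion. Without it the other 22 markers summed to 1.15 and 1.4 CPM before adhesion, and to 34.8 and 22.3 CPM after it, so the groups did not overlap. In E6 the same 22 markers summed to 1.18 and 0.536 CPM before adhesion and to 190 and 151 CPM after adhesion. In a bulk library, fewer cells of a type and less RNA per cell cannot be told apart.

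Tcf7, the transcription factor TCF-1 of the T lineage and the most abundant of these 22 markers, stood at 0.304 and 0.811 CPM before adhesion and at 13.6 and 6.19 CPM after adhesion. It rose in both libraries (log2 FC 4.65 ± 0.319 (SE), FDR = 4.98e-11 in replicate 1, and 3.52 ± 0.356, FDR = 1.16e-06 in replicate 2, edgeR). Dntt, the terminal transferase that adds nucleotides to receptor gene joints, had no count before adhesion and 1.77 and 1.55 CPM after it. Against the floor of 3 counts over both libraries before adhesion, Dntt was at least 17.8-fold higher in replicate 1 and at least 15.5-fold higher in replicate 2. Cd8b1, which encodes the CD8 beta chain, was at least 26.3-fold and 10.7-fold higher in the same way. In the fit Cd8b1 in replicate 2 had an FDR of 0.0638 without replicate 1 before adhesion. Of the 12 listed markers without a count before adhesion, Cd2 and Cd5 had at most 0.145 CPM after adhesion and Tox had none. Among markers of other cells that a thymus preparation can hold, Lyz2, a lysozyme of myeloid cells, went from no count before adhesion to 0.851 and 1.16 CPM, and Cd68, a lysosomal protein of macrophages, from 2 and 1.7 CPM to 5.53 and 6.1 CPM. Of 8 tested myeloid markers 4 rose and 2 fell in replicate 1, where 14.3% of all tested genes were higher and 15.8% lower, and 3 rose and none fell in replicate 2 (1.58% and 0.266%). The 2 that fell were Csf1r, the receptor of macrophage growth factor (log2 FC -0.67 ± 0.122), and Cd14, a coreceptor for lipopolysaccharide, which went from 11.5 and 12.4 CPM to 4.68 CPM in replicate 1 and 11.3 CPM in replicate 2. The 12 myeloid markers together summed to 72.4 and 80 CPM before adhesion and to 51.3 and 76.8 CPM after it, most of it Csf1r. The erythroid markers summed to at most 0.182 CPM, the endothelial markers to at most 0.29 CPM and the fibroblast markers to between 2.36 and 4.31 CPM in the 4 WT libraries.

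**Figure D2:**
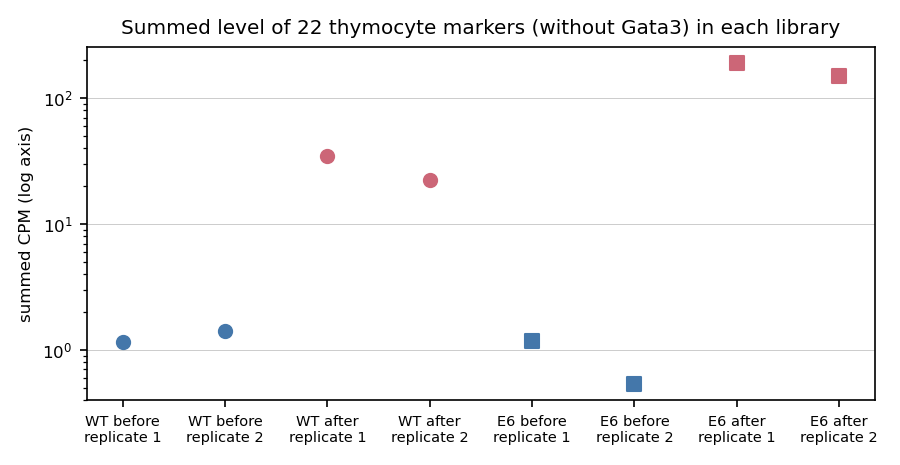
Summed CPM of the thymocyte markers without Gata3 in each of the 8 libraries, on a log axis. The WT libraries go from 1.15 and 1.4 CPM before adhesion to 34.8 and 22.3 CPM after it, and the E6 libraries after adhesion lie higher, at 190 and 151 CPM.

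mTEC identity was read from its own markers. Epcam, the epithelial adhesion molecule, stood at 546 and 543 CPM before adhesion and at 643 and 548 CPM after it. Krt8, a keratin of simple epithelia, lay between 1378 and 2041 CPM in the 4 WT libraries and overlapped between the groups. Foxn1, the master regulator of thymic epithelium, was at 14.1 and 14.1 CPM before and 11.4 and 13.4 CPM after adhesion. None of these 3 was DE in either library. Of 22 tested genes of the list 5 rose and 3 fell in replicate 1, against the same 14.3% and 15.8%, and 1 rose in replicate 2 (1.58%). The keratins Krt14 and Krt18 and the claudin Cldn4 fell in replicate 1. Krt14, a keratin of mTECs, was at 501 and 592 CPM before and at 267 and 536 CPM after adhesion (log2 FC -1.03 ± 0.079, FDR = 2.59e-10 in replicate 1), and with GC correction its log2 FC there was -0.58, under the FC limit. With that correction 7 genes of the list rose and none fell in replicate 1, beside 1451 higher and 1141 lower of all 11672 tested genes. Plet1, a surface marker of thymic epithelial progenitors, rose in replicate 1 (20.6 and 18.6 CPM before, 33 and 22.8 CPM after adhesion). The others that rose there were Eya1 and H2-Ab1, Cd74 and Ctss, genes of MHC class II presentation that leukocytes also express. Ctss, cathepsin S, had no count before adhesion and 1.21 and 0.726 CPM after it and was the gene that rose in replicate 2. Several markers of mature mTECs were at or near 0. Aire had no count in 3 of the WT libraries and 0.145 CPM, the floor of 3 counts in that library, in replicate 2 after adhesion. Fezf2, the other regulator of promiscuous gene expression in mTECs, had no count in any WT library, and Cd80, a costimulatory ligand, did not exceed 0.213 CPM. A change of these 3 genes was not detectable at this depth, and none passed the filter on low counts.

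The question was which mRNAs of WT mTECs differed after adhesion. With both libraries after adhesion taken as replicates, none of 11672 genes was DE by the edgeR quasi-likelihood test (FDR below 0.05 and FC of at least 1.5). The smallest FDR was 0.216, and 873 genes (7.48%) had an unadjusted p below 0.05. DESeq2 called 59 genes higher (0.505%) and 5 lower (0.0428%), and limma-voom with quality weights called 2. Tested apart, replicate 1 had 1668 genes higher (14.3% of those tested) and 1841 lower (15.8%), and replicate 2 had 184 higher (1.58%) and 31 lower (0.266%). Of the 184 genes higher in replicate 2, 94 were under 1 CPM on average before adhesion, the range in which the thymocyte markers lay. Of the 10766 tested genes at or above 1 CPM before adhesion, 90 were higher (0.836%) and 30 lower (0.279%) in replicate 2. The libraries after adhesion both lay above both before it for 1933 of the 11672 genes (16.6%) and below both for 1693 (14.5%).

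The genes with the largest difference of 1 sign in both libraries after adhesion were ranked by the smaller of their 2 differences, among those whose log2 CPM averaged 2 or more over the WT libraries. The 12 highest were Nfkbia, Dusp1, Jun, Fos, Mylip, Nfkbiz, Pnrc1, Irf9, Relb, Frat2, Lgals3bp and Hes1. The 12 lowest were Slc7a11, Hmox1, Trim54, Lars2, Snhg7, Tslp, Id2, Snord96a, Gsta4, Ccnf, Doc2g and Trmt12. The size of their differences was fixed by this choice and is given as a description. At the edge of the ranking Hes1 had a smaller difference of 0.844 and C3, the next gene, 0.832. On the lower side Trmt12 had -0.531 and Ucn2, the next gene, -0.516.

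**Figure D3:**
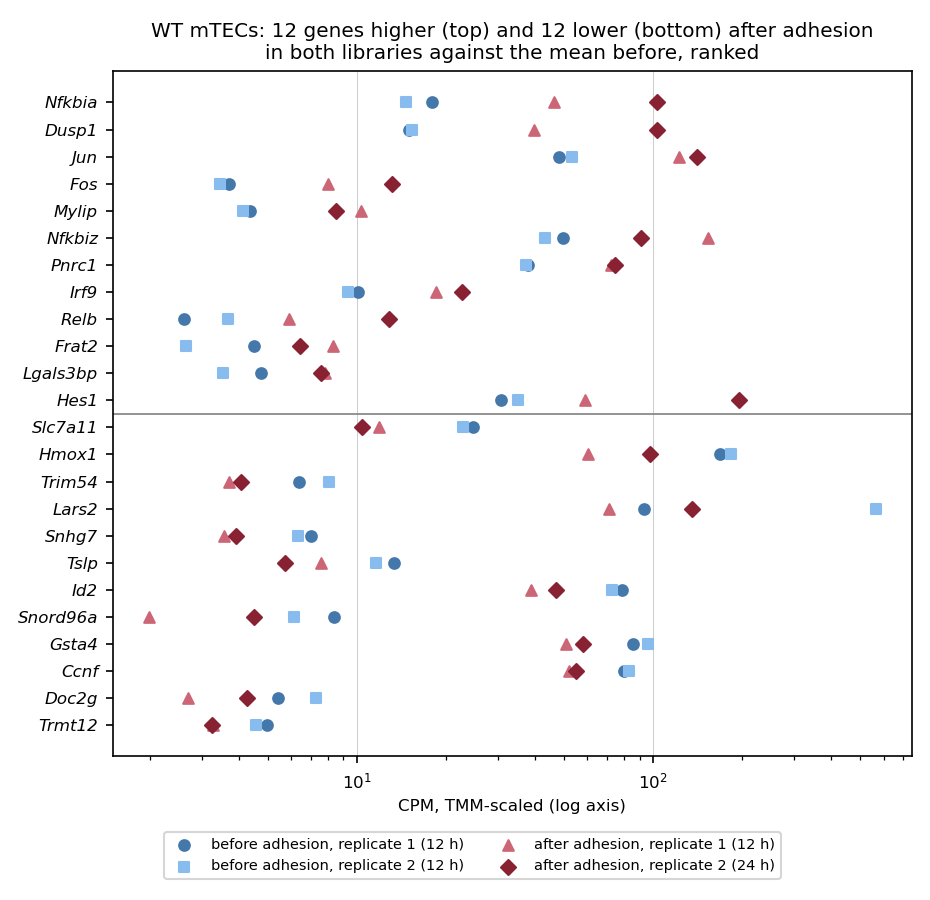
CPM of the 24 genes in the 4 WT libraries, on a log axis, with the genes that were higher at the top and those that were lower at the bottom. Nfkbia, Dusp1 and Hes1 lie farthest above their levels before adhesion in replicate 2, while Lars2 spreads from 93.5 to 564 CPM between the libraries before adhesion.

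Inhibitors and subunits of NF-kB were among the genes that rose in both libraries. The promoters of 6 picked genes are printed here, so that known kinds of site can be seen beside the values. Only windows with a match were printed, so the matches in them follow from the choice. Each line holds the 250 bases before the RefSeq gene start (GRCm38.p6) on the strand of the gene, and capitals mark matches to the NF-kB consensus, to the AP-1 motif TGANTCA, to the CRE TGACGTCA or to the ISRE (GAAA, any 2 bases, GAAA). Matches were read on both strands, and AP-1 and CRE matches do not overlap.
Nfkbia, inhibitor IkB-alpha, chr12:55492648-55492897, minus strand, NF-kB motif: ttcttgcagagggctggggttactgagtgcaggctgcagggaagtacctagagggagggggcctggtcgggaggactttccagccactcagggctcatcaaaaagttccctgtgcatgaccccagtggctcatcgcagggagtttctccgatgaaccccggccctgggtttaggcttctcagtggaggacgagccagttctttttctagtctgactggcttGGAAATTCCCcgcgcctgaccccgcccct
Tnfaip3, ubiquitin-editing enzyme A20, chr10:19015411-19015660, minus strand, AP-1 then NF-kB motif: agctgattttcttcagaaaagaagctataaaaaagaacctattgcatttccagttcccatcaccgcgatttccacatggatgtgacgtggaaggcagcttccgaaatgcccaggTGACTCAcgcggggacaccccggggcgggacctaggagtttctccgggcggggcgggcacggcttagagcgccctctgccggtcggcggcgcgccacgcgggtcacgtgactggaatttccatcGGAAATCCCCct
Irf1, interferon regulatory factor, chr11:53769764-53770013, plus strand, NF-kB motif: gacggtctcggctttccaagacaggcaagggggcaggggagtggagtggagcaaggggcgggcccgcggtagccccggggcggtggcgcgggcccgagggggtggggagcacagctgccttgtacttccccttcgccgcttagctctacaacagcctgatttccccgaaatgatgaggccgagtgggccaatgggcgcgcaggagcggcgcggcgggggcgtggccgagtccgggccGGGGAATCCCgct
Fos, AP-1 subunit, chr12:85473640-85473889, plus strand, NF-kB motif: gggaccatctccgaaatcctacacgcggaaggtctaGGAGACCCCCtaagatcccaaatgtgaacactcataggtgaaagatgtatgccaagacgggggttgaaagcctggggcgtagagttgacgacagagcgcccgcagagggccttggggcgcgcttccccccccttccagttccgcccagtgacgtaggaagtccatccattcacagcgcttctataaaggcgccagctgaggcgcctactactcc
Dusp1, MAP kinase phosphatase, chr17:26508473-26508722, minus strand, CRE: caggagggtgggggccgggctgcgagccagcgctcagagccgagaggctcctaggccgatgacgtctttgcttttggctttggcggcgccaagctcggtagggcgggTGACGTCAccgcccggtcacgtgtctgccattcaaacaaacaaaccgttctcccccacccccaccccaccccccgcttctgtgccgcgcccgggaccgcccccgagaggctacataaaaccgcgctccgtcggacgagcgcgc
Stat2, interferon signal transducer, chr10:128270248-128270497, plus strand, ISRE: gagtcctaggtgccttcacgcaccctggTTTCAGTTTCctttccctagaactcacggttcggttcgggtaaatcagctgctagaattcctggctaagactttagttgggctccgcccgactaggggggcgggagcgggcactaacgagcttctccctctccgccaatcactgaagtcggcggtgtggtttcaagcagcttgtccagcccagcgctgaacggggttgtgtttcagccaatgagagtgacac

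The first base of the NF-kB match lay 29 bases before the start in Nfkbia, 12 in Tnfaip3, 13 in Irf1 and 214 in Fos. The NF-kB consensus occurred in 5% of all 32851 promoter windows of this length in the RefSeq table, AP-1 in 6.75%, the CRE in 1.55% and the ISRE in 2.98%. In windows of the listed NF-kB subunits and feedback genes the NF-kB consensus occurred in 11 of 27 (40.7%), and the ISRE occurred in 11 of 29 windows of the listed interferon-stimulated genes (37.9%). These shares cover all listed genes, whether they rose or not, and describe the lists rather than these libraries. No window of the ATF4 targets held the NF-kB motif (0 of 27). The NF-kB motif occurred in 4 of 31 windows of the immediate early genes (12.9%) and 2 of 17 of the oxidative stress list (11.8%). For the 12 genes ranked highest it occurred in 2 of 10 windows (20%), which came from 9 genes. Nfkbie, which rose in both libraries, had an AP-1 match and no NF-kB match. A match is a description of the sequence, not a bound site.

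Nfkbia, which encodes the inhibitor IkB-alpha, stood at 18 and 14.7 CPM before adhesion, at 46.3 CPM in replicate 1 and at 104 CPM in replicate 2 after adhesion. Both libraries after adhesion were above both before it, with replicate 2 the highest. Nfkbia rose by a log2 FC of 1.49 ± 0.241 (SE; FDR = 1.52e-05) in replicate 1 and 2.66 ± 0.213 (FDR = 6.77e-08) in replicate 2. Over both libraries as replicates it did not pass the test (log2 FC 2.20 ± 0.428, FDR = 0.244, edgeR), and the libraries after adhesion differed from each other by more than the FC limit. Nfkbie, which encodes IkB-epsilon, was lower in level but moved alike, from 1.82 and 1.7 CPM to 4.89 and 7.45 CPM. It rose in both libraries (log2 FC 1.47 ± 0.274, FDR = 8.43e-05, and 2.07 ± 0.235, FDR = 7.83e-06). Nfkbiz, which encodes the nuclear IkB-zeta, was at 49.7 and 43.3 CPM before adhesion and at 154 and 90.8 CPM after it, so that here replicate 1 was the highest. Its log2 FC was 1.72 ± 0.102 (FDR = 4.94e-12) and 0.96 ± 0.104 (FDR = 3.84e-06). Tnfaip3, encoding A20, went from 84.3 and 74.7 CPM to 126 and 134 CPM and rose in both (log2 FC 0.66 ± 0.094, FDR = 2.83e-06, and 0.75 ± 0.091, FDR = 2.17e-05). Without replicate 2 before adhesion its log2 FC in replicate 1 was 0.58, under the FC limit.

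The subunits differed between the libraries after adhesion. Relb, the subunit of the alternative pathway, was at 2.61 and 3.69 CPM before adhesion and at 5.89 and 12.9 CPM after it. It rose in both (log2 FC 0.92 ± 0.257, FDR = 0.0039, and 2.05 ± 0.205, FDR = 1.07e-06). Nfkb2, which encodes p100, was at 83 and 80 CPM before adhesion and rose in replicate 2 (145 CPM, log2 FC 0.83 ± 0.074, FDR = 2.03e-07), while replicate 1 at 80.1 CPM lay within the levels before adhesion. Map3k14, which encodes NIK, also rose in replicate 2 (from 17.7 and 21.6 CPM to 31.1 CPM, log2 FC 0.67 ± 0.144, FDR = 0.00726), with 18.6 CPM in replicate 1. Rel, encoding c-Rel, rose in replicate 1 (from 9.84 and 8.62 CPM to 17.2 CPM, log2 FC 0.90 ± 0.164, FDR = 7.09e-05) and had 12.8 CPM in replicate 2. Rela was at 183 and 196 CPM before adhesion and at 242 and 210 CPM after it, a difference below the FC limit of 1.5 in both. Without replicate 1 before adhesion the FDR was 0.0623 for Relb in replicate 1 and 0.204 for Map3k14 in replicate 2, and with GC correction Rel in replicate 1 had a log2 FC of 0.58, just under the limit.

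Of the 23 tested genes on the list of NF-kB subunits and feedback, 7 rose and 1, Traf2, fell in replicate 1, while 7 rose and none fell in replicate 2, beside the 14.3% higher and 15.8% lower in replicate 1 and the 1.58% higher and 0.266% lower in replicate 2 over all tested genes. The median log2 FC of the list was 0.367 in replicate 1 and 0.473 in replicate 2, against 0.006 over all tested genes in each. Both libraries after adhesion lay above both before it for 12 of the 23 genes (16.6% over all tested genes) and below both for none (14.5%). Few receptors of the pathway were called. Of 13 tested genes of the TNF receptor family and its adaptors, Ripk1 rose and Tnfrsf1a and Tnfrsf12a fell in replicate 1. These were no more than the 14.3% higher and 15.8% lower there over all tested genes. In replicate 2 Map3k14 rose, beside 1.58% higher over all tested genes. With GC correction 1 rose and none fell in replicate 1, beside 1451 higher and 1141 lower of all 11672 tested genes. None was DE in replicate 2 with this correction. Ltbr, the lymphotoxin beta receptor, was at 118 and 129 CPM before adhesion and at 142 and 141 CPM after it (log2 FC 0.20 ± 0.074 and 0.19 ± 0.073), below the FC limit. Cd40 and Tnfrsf11a, which encodes RANK, had no count in any WT library.

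Immediate early genes encode transcription factors and phosphatases that cells induce within minutes of a signal. Jun, the AP-1 subunit c-Jun, stood at 48.1 and 53.3 CPM before adhesion and at 122 and 140 CPM after it. The groups were far apart, and both tests passed (log2 FC 1.27 ± 0.104, FDR = 7.54e-10 in replicate 1, and 1.47 ± 0.1, FDR = 5.84e-09 in replicate 2). Fos, its partner, went from 3.7 and 3.46 CPM to 8.02 and 13.1 CPM and rose in both (log2 FC 1.16 ± 0.254, FDR = 0.000482, and 1.87 ± 0.218, FDR = 1.2e-05). Dusp1, the phosphatase that inactivates stress MAP kinases, was at 15 and 15.3 CPM before adhesion and at 39.5 and 103 CPM after it, with the largest log2 FC of the 24 ranked genes in replicate 2 (1.38 ± 0.219, FDR = 1.18e-05, and 2.77 ± 0.191, FDR = 5.84e-09). Zfp36, which encodes the mRNA-destabilising protein tristetraprolin, went from 30.1 and 38 CPM to 58.5 and 76.2 CPM and rose in both (log2 FC 0.79 ± 0.106, FDR = 1.41e-06, and 1.17 ± 0.099, FDR = 1.16e-07). Egr2, a zinc finger factor that thymocytes also express, rose from 0.364 and 0.516 CPM to 3.33 and 2.66 CPM. Without replicate 1 before adhesion Egr2 in replicate 2 had an FDR of 0.0692.

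Other immediate early genes passed the test in 1 library. In replicate 1 Egr1 (112 and 112 CPM before, 336 CPM after), Nr4a2 (9.84 and 8.4 CPM before, 31.6 CPM after), Fosl1, Klf6 and Mcl1 rose. Replicate 2 had 169 CPM of Egr1 and 12.6 CPM of Nr4a2, higher than both libraries before adhesion, and did not pass the test (FDR = 0.0891 and 0.129). In replicate 2 Atf3, Ier2 and Maff rose. Atf3, a stress-induced factor, was at 15.2 and 11.1 CPM before adhesion and at 16.7 and 30.6 CPM after it. Junb went opposite ways, from 215 and 270 CPM before adhesion down to 148 CPM in replicate 1 (log2 FC -0.71 ± 0.123, FDR = 3.79e-05) and up to 447 CPM in replicate 2 (0.89 ± 0.112, FDR = 3.34e-05). Corrected for GC content, Junb in replicate 1 had a log2 FC of -0.12 (FDR = 0.354), and without replicate 2 before adhesion -0.54. In replicate 2 the calls of Atf3, Ier2 and Maff were lost without replicate 1 before adhesion (FDR = 0.0684, 0.103 and 0.0671), and that of Atf3 also without replicate 2 (FDR = 0.122). Of the 32 tested genes of the list 10 rose and 2 fell in replicate 1 (14.3% and 15.8% over all tested genes), and 9 rose and none fell in replicate 2 (1.58% and 0.266%), with medians of 0.215 and 0.453. In replicate 2, 6 rose with DESeq2, beside 81 higher of all 11672 tested genes. With culture time as a covariate 7 rose and 1 fell there, beside 127 and 34 of all tested genes. Both libraries after adhesion were above both before it for 17 and below for 2, beside 16.6% and 14.5% over all tested genes.

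Interferon-stimulated genes rose in part. These genes respond to type I and II interferons through transcription factors that bind the ISRE, among them STAT2 and IRF9. Irf9 stood at 10.1 and 9.36 CPM before adhesion and at 18.4 and 22.6 CPM after it (log2 FC 0.92 ± 0.173, FDR = 9.19e-05, and 1.22 ± 0.158, FDR = 4.93e-05). Stat2 was at 17.9 and 16.8 CPM before and 29.1 and 27.7 CPM after adhesion (log2 FC 0.74 ± 0.13, FDR = 3.77e-05, and 0.67 ± 0.124, FDR = 0.00204). Both genes were above the libraries before adhesion by similar amounts in both libraries. Irf1, a transcription factor induced by interferon gamma and by NF-kB, went from 9.6 and 11.8 CPM to 16.7 and 29.8 CPM and rose in both (log2 FC 0.65 ± 0.249, FDR = 0.0291, and 1.49 ± 0.217, FDR = 0.000192). Ddx58, the RNA sensor RIG-I, was at 39 and 41 CPM before adhesion and at 74.3 and 63.3 CPM after it (log2 FC 0.89 ± 0.087, FDR = 1.11e-08, and 0.66 ± 0.085, FDR = 4.01e-05). Irf1 in replicate 1 had an FDR of 0.203 without replicate 1 before adhesion.

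Many classical members of this response stayed low. Isg15 was between 0.0737 and 0.729 CPM and overlapped, Rsad2 did not exceed 0.442 CPM, and Mx1 had no count in 3 of the 4 WT libraries. Irf7 rose from 0.243 and 0.663 CPM to 1.77 and 1.69 CPM. Without replicate 1 before adhesion its FDR was 0.0586 in replicate 1 and 0.373 in replicate 2. Of 30 tested genes on the list 14 rose and 2, Oasl1 and Ifi35, fell in replicate 1, and 6 rose and none fell in replicate 2, with medians of 0.802 and 0.668. These counts stand beside 14.3% higher and 15.8% lower in replicate 1, and 1.58% and 0.266% in replicate 2, over all tested genes. In replicate 2, 3 rose with culture time as a covariate, 4 with GC correction and 3 with DESeq2. Over all 11672 tested genes these fits called 127, 133 and 81 higher there. The median of the list with culture time was 0.313. Stat2 in replicate 2 had an FDR of 0.0653 with culture time. Both libraries after adhesion lay above both before it for 21 genes and below for 3, beside 16.6% and 14.5% over all tested genes. Of 17 tested genes of MHC class I presentation, B2m, Erap1 and Calr rose and H2-T23 and Tap1 fell in replicate 1, near the 14.3% higher and 15.8% lower over all tested genes, and none was DE in replicate 2. B2m, the light chain of class I molecules, was at 172 and 178 CPM before adhesion, at 372 CPM in replicate 1 and at 188 CPM in replicate 2. H2-K1, a class I heavy chain, was at 25.4 and 29.4 CPM before adhesion and at 25.8 and 37.5 CPM after it.

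Among the cytokines and chemokines the genes that rose in both libraries had low levels. Il1b, which encodes interleukin 1 beta, went from 0.121 and 0.0737 CPM before adhesion to 1.42 and 1.21 CPM. Cxcl2, a neutrophil chemokine, went from 0 and 0.221 CPM to 0.851 and 1.26 CPM. Tnf had no count before adhesion and 0.355 and 0.726 CPM after it, at least 3.55-fold and 7.27-fold higher against the floor of 3 counts. These levels lay in the range of the thymocyte and myeloid markers in the same libraries, and the part of RNA from adherent cells in them was not tested. Vcam1, the adhesion molecule that binds the integrin VLA-4 of lymphocytes, rose from 0.425 and 0.442 CPM to 1.56 and 2.08 CPM (log2 FC 1.83 ± 0.54, FDR = 0.00597, and 2.25 ± 0.465, FDR = 0.00557). Without replicate 1 before adhesion the calls in replicate 2 were lost for Vcam1 (FDR = 0.113), Il1b (0.114), Cxcl2 (0.251) and Tnf (0.272), and in replicate 1 for Cxcl2 (0.121) and Tnf (0.127). Without replicate 2 before adhesion Tnf was lost in both (0.107 and 0.138) and Il1b in replicate 2 (0.069).

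Secreted factors with higher levels showed smaller differences. Csf1, the macrophage growth factor, was at 214 and 222 CPM before adhesion and at 308 and 267 CPM after it (log2 FC 0.50 ± 0.07 and 0.29 ± 0.07). Lif was at 59.2 and 56.4 CPM before and 77 and 82.6 CPM after adhesion, and Cxcl16, a chemokine that also exists as a membrane-bound ligand, at 93.7 and 90 CPM before and 124 and 124 CPM after it. For all 3 genes the groups did not overlap and the FC stayed below 1.5. Tslp, an epithelial cytokine that acts on dendritic cells, was the one gene of the list that fell in both libraries, from 13.3 and 11.6 CPM to 7.59 and 5.71 CPM (log2 FC -0.72 ± 0.184, FDR = 0.00205, and -1.13 ± 0.18, FDR = 0.000515). Of 26 tested genes of the list 4 rose and 1 fell in replicate 1, near the 14.3% higher and under the 15.8% lower over all tested genes. In replicate 2, 3 rose and 1 fell, beside 1.58% and 0.266%. DESeq2 called 1 each way there, beside 81 higher and 14 lower of all 11672 tested genes. The medians were 0.302 and 0.475.

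Adhesion receptors and matrix genes were read because the assay rests on cell contact. Of 40 tested adhesion receptors 4 rose and 11 fell in replicate 1, where 14.3% of all tested genes were higher and 15.8% lower. Vcam1 alone was DE in replicate 2, where it rose, beside 1.58% higher over all tested genes. With GC correction 5 receptors rose and 2 fell in replicate 1, beside 1451 higher and 1141 lower of all 11672 tested genes. The medians of the adhesion receptors were 0.013 and 0.041. Itgb6, an epithelial integrin chain that activates TGF-beta, was at 29.3 and 25.6 CPM before adhesion and at 34.1 and 36.4 CPM after it, without overlap and below the FC limit. Cd44, the hyaluronan receptor, was at 449 and 421 CPM before adhesion, at 642 CPM in replicate 1 and at 415 CPM in replicate 2. Icam1, the ligand of LFA-1 on T cells, was at 0.668 and 0.737 CPM before and at 0.497 and 1.06 CPM after adhesion, and overlapped. Of 38 tested genes of matrix, proteases and inhibitors 3 rose and 13 fell in replicate 1, against the same 14.3% and 15.8%. Lgals3bp alone was DE in replicate 2, where it rose, against the same 1.58%. With GC correction 2 rose and 4 fell in replicate 1, against the same 1451 and 1141, and none was DE in replicate 2. Lgals3bp, a secreted glycoprotein that binds galectin 3, rose in both libraries, from 4.74 and 3.54 CPM to 7.8 and 7.55 CPM (log2 FC 0.90 ± 0.235, FDR = 0.00237, and 0.85 ± 0.218, FDR = 0.0245). Its call in replicate 2 was lost without either library before adhesion (FDR = 0.0877 and 0.177). Timp3, an inhibitor of metalloproteinases, was at 336 and 348 CPM before adhesion and at 437 and 305 CPM after it, on either side of the levels before adhesion.

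Hes1, a transcriptional repressor and target of Notch, stood at 30.6 and 34.9 CPM before adhesion, at 58.7 CPM in replicate 1 and at 195 CPM in replicate 2. It rose in both (log2 FC 0.85 ± 0.361, FDR = 0.0484, and 2.58 ± 0.315, FDR = 2.17e-05), the first close to the limit and lost without either library before adhesion (FDR = 0.22 and 0.125). In E6 Hes1 had 37.5 and 31.5 CPM before adhesion and 53.5 and 171 CPM after it, the same order by replicate number. By labelled culture time the order was reversed, since the higher library was the 24 h one in WT and the 12 h one in E6. Of 10 tested genes of the Notch pathway no other was DE in either WT library. Over all tested genes 14.3% were higher and 15.8% lower in replicate 1, and 1.58% and 0.266% in replicate 2. Dll1, a Notch ligand, was at 9.23 and 10.1 CPM before and at 10.6 and 13.2 CPM after adhesion. Pnrc1, a nuclear receptor coactivator, rose from 38 and 37.3 CPM to 71.9 and 74.3 CPM, and Mylip, the ubiquitin ligase that degrades the LDL receptor, from 4.37 and 4.13 CPM to 10.3 and 8.52 CPM. Both passed the test in both libraries (Pnrc1 log2 FC 0.93 ± 0.162 and 0.98 ± 0.156, Mylip 1.27 ± 0.262 and 1.00 ± 0.254). Mylip in replicate 2 was not called without either library before adhesion (FDR = 0.203 and 0.134). Frat2, an inhibitor of the kinase GSK-3, was at 4.49 and 2.65 CPM before and at 8.3 and 6.43 CPM after adhesion, and passed in replicate 1 only.

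The genes that fell included genes of the oxidative stress response. Hmox1, heme oxygenase 1, stood at 168 and 183 CPM before adhesion and at 60.3 and 97.7 CPM after it. The groups did not overlap, and both tests passed (log2 FC -1.54 ± 0.083, FDR = 1e-12, and -0.84 ± 0.076, FDR = 2.07e-07). Slc7a11, the cystine importer that feeds glutathione synthesis, fell from 24.6 and 22.8 CPM to 11.9 and 10.4 CPM (log2 FC -0.99 ± 0.205, FDR = 0.000253, and -1.19 ± 0.196, FDR = 0.000697). Gclc, the catalytic subunit of the enzyme that limits glutathione synthesis, fell in replicate 2, from 224 and 238 CPM to 128 CPM (log2 FC -0.85 ± 0.074, FDR = 1.31e-07), and was at 204 CPM in replicate 1. Gsta4, a glutathione transferase, fell in both, from 85.6 and 95.9 CPM to 50.8 and 58.1 CPM (log2 FC -0.84 ± 0.096, FDR = 1.4e-07, and -0.64 ± 0.09, FDR = 0.000129). Without replicate 2 before adhesion Gsta4 in replicate 2 had a log2 FC of -0.56, under the FC limit. Srxn1 and Osgin1 fell in replicate 1, and in replicate 2 they differed by log2 FC -0.34 ± 0.078 and -0.46 ± 0.091, below the FC limit. Of 17 tested genes of the list 8 fell in replicate 1 and none rose, beside 15.8% lower and 14.3% higher over all tested genes. In replicate 2 Hmox1, Slc7a11 and Gclc fell and Mt2, a metallothionein, rose (0.266% and 1.58% over all tested genes). The medians were -0.545 and -0.275. In both libraries after adhesion 8 genes lay below both before it and 1 above, beside 14.5% and 16.6% over all tested genes.

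Targets of ATF4, which serve amino acid supply and the one-carbon pathway, were lower in replicate 1. Of 26 tested 14 fell there and none rose, beside 15.8% lower and 14.3% higher over all tested genes. In replicate 2 Slc7a11 fell and Cebpb rose (0.266% and 1.58% over all tested genes). The medians were -0.729 and -0.144. Trib3, a pseudokinase of this response, was at 50.3 and 48.1 CPM before adhesion, at 13.6 CPM in replicate 1 and at 39.8 CPM in replicate 2. Asns, asparagine synthetase, was at 396 and 368 CPM before adhesion and at 289 and 294 CPM after it, below the FC limit in both (log2 FC -0.40 ± 0.079 and -0.38 ± 0.077). Both libraries after adhesion were below both before it for 17 of the 26 genes (14.5% over all tested genes), and above for 1, Cebpb (16.6%). Corrected for GC content, replicate 1 had 11 of these genes lower and 2 higher, beside 1141 lower and 1451 higher of all 11672 tested genes.

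Genes of cholesterol synthesis were lower by small amounts. Of 22 tested, 5 fell in replicate 1 (Fdps, Lss, Mvd, Mvk and Srebf2), close to the 15.8% over all tested genes, and none was DE in replicate 2. The medians were -0.4 and -0.256. Fdft1, squalene synthase, was at 155 and 170 CPM before adhesion and at 119 and 127 CPM after it (log2 FC -0.44 ± 0.082 and -0.36 ± 0.079). For 14 of the 22 genes both libraries after adhesion were below both before it (14.5% over all tested genes), and for none above (16.6%). Of 28 tested genes of hypoxia and glycolysis 11 fell and 2 rose in replicate 1 (15.8% and 14.3% over all tested genes). With GC correction 6 fell and 2 rose there, beside 1141 lower and 1451 higher of all 11672 tested genes. In replicate 2 P4ha2 and Bnip3 rose and none fell, beside 1.58% higher and 0.266% lower over all tested genes. P4ha2, a collagen prolyl hydroxylase subunit, rose in both libraries, from 3.89 and 3.32 CPM to 6.1 and 7.16 CPM (log2 FC 0.75 ± 0.258, FDR = 0.0163, and 0.98 ± 0.232, FDR = 0.0146). P4ha2 was lost in replicate 2 without either library before adhesion (FDR = 0.111 and 0.11) and in replicate 1 without replicate 2 (FDR = 0.0866).

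Other genes that fell in both libraries had diverse roles. Id2, an inhibitor of basic helix-loop-helix factors, went from 78.4 and 72.5 CPM to 38.6 and 47.2 CPM (log2 FC -0.97 ± 0.111, FDR = 1.46e-07, and -0.68 ± 0.103, FDR = 0.000314). Trim54 fell from 6.38 and 8.03 CPM to 3.69 and 4.06 CPM. Its call in replicate 2 was lost without either library before adhesion (FDR = 0.0709 and 0.177). Ccnf, the cyclin F subunit of a ubiquitin ligase, fell in replicate 1 (from 79.7 and 83.1 CPM to 52.1 CPM, log2 FC -0.64 ± 0.094) and with 55 CPM and a log2 FC of -0.57 ± 0.09 stayed just short of the FC limit in replicate 2. Lars2, the mitochondrial leucyl-tRNA synthetase, ranked low only through 1 library before adhesion. It was at 93.5 and 564 CPM before adhesion and at 71.2 and 135 CPM after it, so that the groups overlapped. Without replicate 2 before adhesion its log2 FC was -0.40 in replicate 1 and 0.53 in replicate 2.

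**Figure D4:**
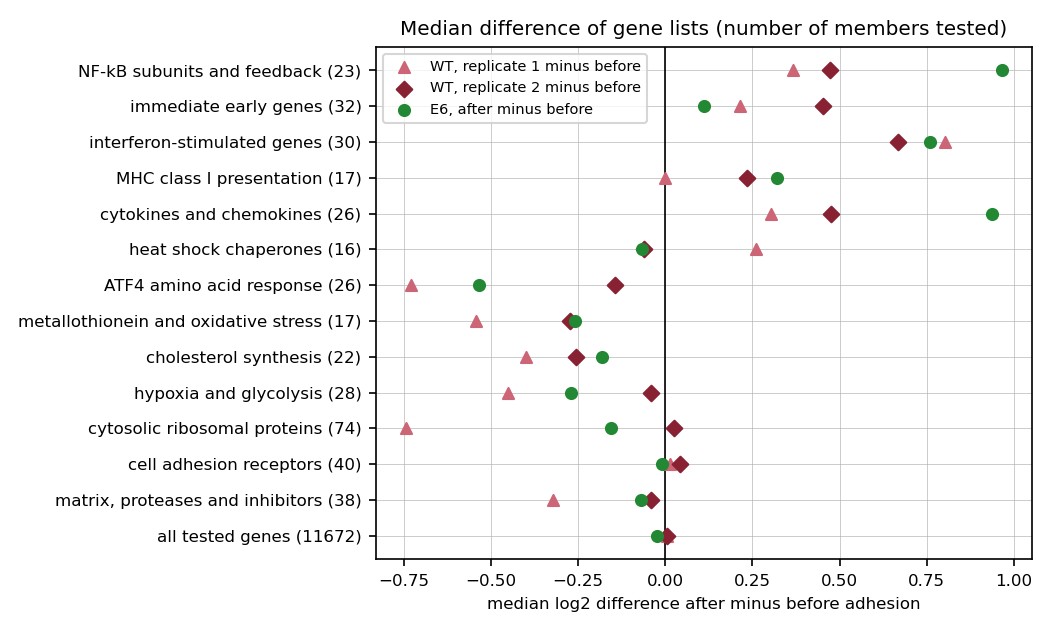
Median log2 FC of each gene list in WT replicate 1, WT replicate 2 and E6 after adhesion, each against the libraries before adhesion. NF-kB (0.367, 0.473 and 0.967) and interferon-stimulated genes (0.802, 0.668 and 0.759) lie above 0 in all 3, and the ribosomal proteins have medians of -0.745, 0.025 and -0.157.

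Replicate 1 and replicate 2 after adhesion differed from each other in 3769 genes, 2143 higher (18.4%) and 1626 lower (13.9%) in replicate 2. Among the 6 genes that differed most in each direction, Rps14, a ribosomal protein, was at 226 and 220 CPM before adhesion, at 43.9 CPM in replicate 1 and at 252 CPM in replicate 2, and Ppig, a nuclear cyclophilin, at 238 and 235, 935 and 205 CPM. Of 74 tested genes of cytosolic ribosomal proteins 50 fell in replicate 1 and none in replicate 2, beside 15.8% and 0.266% over all tested genes. With GC correction 39 fell and 1 rose in replicate 1, beside 1141 lower and 1451 higher of all 11672 tested genes. Both WT libraries after adhesion lay below both before it for 22 of these genes, beside 14.5% of all tested genes. In E6 none was DE, and 70 of the 74 lay below both libraries before adhesion in both libraries after it, beside 31.5% of all tested genes. In WT, replicate 1 also had the lower share of reads on genes, the steeper GC slope and the larger differences by transcript length. Beyond the GC correction above, the part of these properties in the ribosomal protein values was not tested.

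In other genes replicate 2 stood apart. Hspa1b, an inducible HSP70 chaperone, was at 7.89 and 11.3 CPM before adhesion, at 10.6 CPM in replicate 1 and at 120 CPM in replicate 2 (log2 FC 3.67 ± 0.523, FDR = 0.000144). Its near-identical copy Hspa1a was at 0 and 0.0737 CPM before adhesion and at 0.355 and 3.82 CPM after it, and reads of the pair may have been split in counting. Dnajb1 and Hspb1, further heat shock proteins, rose in replicate 2 to 131 CPM (from 83.9 and 90 CPM) and 37.2 CPM (from 21.3 and 23.4 CPM). Without replicate 1 before adhesion Dnajb1 had a log2 FC of 0.54, under the FC limit. With GC correction Dnajb1 and Hspb1 each had a log2 FC of 0.56 in replicate 2, under the limit. In replicate 1 Dnaja1, Hsp90aa1, Hsp90ab1 and Hspe1 rose. Thus 4 of the 16 tested chaperones rose in each library, beside 14.3% (replicate 1) and 1.58% (replicate 2) of all tested genes. With GC correction 1 of them rose in replicate 1, beside 1451 of all 11672 tested genes. Malat1 and Neat1, long noncoding RNAs retained in the nucleus, fell in replicate 2. Malat1 was at 736 and 652 CPM before adhesion and at 998 and 305 CPM after it, and Neat1 at 132 and 134 CPM before and at 97 and 58.3 CPM after it. The log2 FC in replicate 2 was -1.19 ± 0.096 (FDR = 6.77e-08) for Malat1 and -1.19 ± 0.109 (FDR = 2.58e-07) for Neat1. In E6, Hspa1b was at 25.3 and 19.4 CPM before adhesion and at 5.93 and 60.1 CPM after it, and Malat1 between 457 and 579 CPM in all 4 libraries.

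The E6 libraries gave a reading of the same genes in samples that the ranking of the 24 genes had not used. In E6 225 genes were higher (1.93%) and 9 lower (0.0771%) after adhesion, and among the 10766 genes at or above 1 CPM in WT mTECs before adhesion these counts were 39 (0.362%) and 9 (0.0836%). Nfkbia went from 13.2 and 12.9 CPM to 82.7 and 156 CPM and rose (log2 FC 3.19, FDR = 0.0163). Nfkbie (1.04 and 1.02 CPM before, 10.8 and 10.2 CPM after), Nfkbiz (49.2 and 38 before, 149 and 159 after), Tnfaip3 (102 and 84.3 before, 207 and 214 after) and Zfp36 rose as well. Irf9, Ddx58 and Pnrc1 rose, with log2 FC 1.04, 0.70 and 1.44. Of the 12 genes ranked highest in WT, Nfkbia, Nfkbiz, Pnrc1 and Irf9 were thus called in E6. The other 8 were not, with FDR from 0.203 for Relb to 1 for Jun, and Dusp1 had 0.603, Fos 0.815 and Hes1 0.575. All of the 12 but Jun lay above both E6 libraries before adhesion in both after it, beside 23.6% of all tested genes. Of the genes lower in WT, Hmox1 was at 167 and 166 CPM before adhesion in E6 and at 97.2 and 95.7 CPM after it, without overlap, and did not pass the test (FDR = 0.182). Trim54, Id2, Snord96a, Gsta4, Ccnf and Trmt12 also lay below both E6 libraries before adhesion in both after it, and none was DE. Over all tested genes 31.5% lay below in this way. Slc7a11 overlapped in E6 (13 and 7.71 CPM before, 7.48 and 9.68 CPM after), and Tslp lay between 9.62 and 11.3 CPM in all 4. Lars2 and Snhg7 overlapped as well, and Doc2g lay above.

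Jun had different values in the genotypes. In E6 it was at 91.4 and 107 CPM before adhesion and at 78.7 and 95.7 CPM after it, so that the groups overlapped where in WT they lay far apart. The difference of the effects, E6 minus WT, was a log2 FC of -1.56 ± 0.212 and did not pass the test over all genes (FDR = 0.988, edgeR). For no gene did the effect of adhesion differ between E6 and WT in this test, with 297 genes at an unadjusted p below 0.05 and 3 genes called by DESeq2. Nor was Nfkbia called, although its level after adhesion was higher in E6. The thymocyte markers without Gata3 summed to 190 and 151 CPM in E6 and to 34.8 and 22.3 CPM in WT after adhesion, and the part of thymocyte RNA in these values was not tested.

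**Figure D5:**
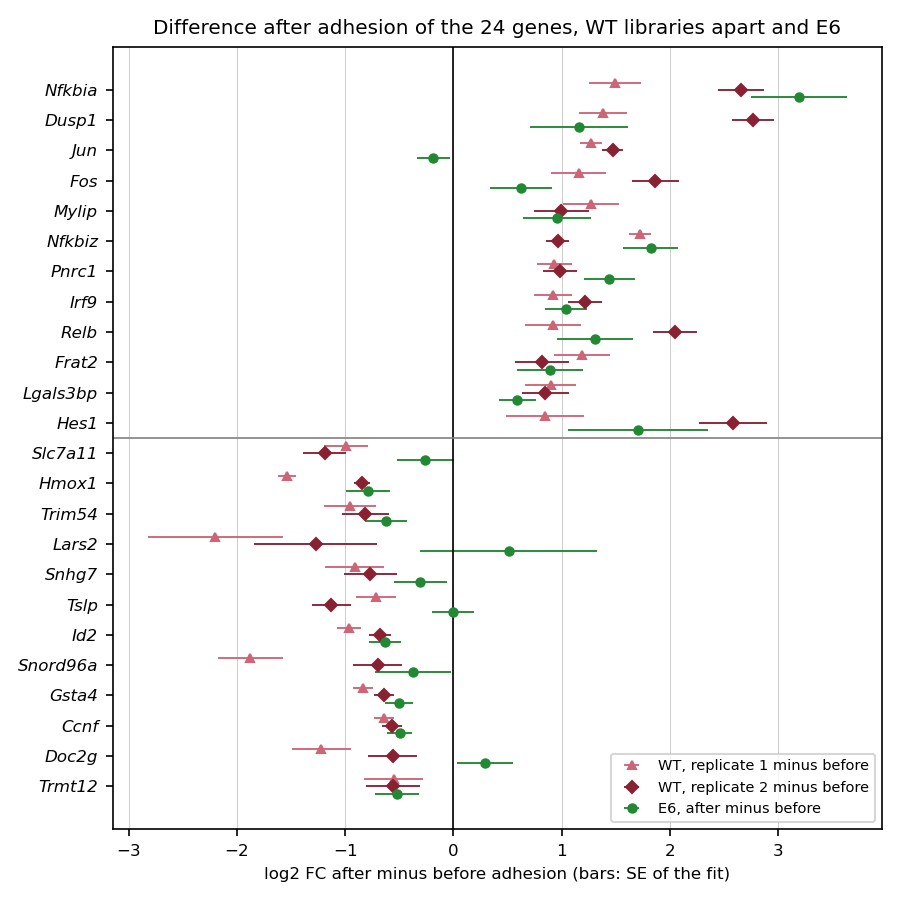
Log2 FC after adhesion of the 24 ranked genes in WT replicate 1, WT replicate 2 and E6, each against the libraries before adhesion, with bars for the SE of the fit. Nfkbia lies at 1.49, 2.66 and 3.19, and Jun at 1.27 and 1.47 in WT and at -0.19 in E6.

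The genes that the study singled out had these values in WT. Ddit4, an inhibitor of mTOR signalling, was at 165 and 182 CPM before adhesion, at 71.6 CPM in replicate 1 and at 157 CPM in replicate 2. Fabp5, a fatty acid binding protein, had 139 and 133 CPM before and 59.4 and 129 CPM after adhesion. Both genes lay below both libraries before adhesion in both libraries after it, and each was called lower in replicate 1 only. Scd1, a fatty acid desaturase, was at 81.1 and 82.7 CPM before adhesion and at 83.6 and 66.3 CPM after it. The study writes Serpin2, a symbol that is not in the count tables, and it was read here as Serpinb2. Serpinb2, a protease inhibitor, was at 39.8 and 34.9 CPM before adhesion and at 31.6 and 26.9 CPM after it, without overlap and below the FC limit (log2 FC -0.25 ± 0.121 and -0.48 ± 0.117). Tnc, the matrix protein tenascin C, overlapped, at 113 and 88.7 CPM before and 89.6 and 103 CPM after adhesion. Pvrl3, the adhesion molecule nectin 3, was at 0.789 and 0.516 CPM before and at 1.63 and 0.677 CPM after adhesion, and Cd24a between 397 and 450 CPM in all 4 WT libraries. Pvrl3 in replicate 1 was called higher (log2 FC 1.28 ± 0.423, FDR = 0.0126), a call lost without replicate 2 before adhesion (FDR = 0.0681).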

How the data were processed

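RNA-Seq counts of 8 libraries were used, with groups taken from the sample titles. Per the labels and the methods of the study, the authors aligned the reads to GRCm38 (mm10) with STAR 2.5.0a and counted reads per gene with HTSeq; the deposited counts are raw whole numbers per gene symbol, and the annotation and strand setting are not given in the sources used here. The lines for reads on no gene, ambiguous or multiply aligned reads were left out of library sizes and tests (21.2% to 33.3% of counted reads in the WT libraries). Genes were filtered with filterByExpr over the 4 conditions, which left 11672 of 24052 symbols, and scaled by TMM. CPM values are TMM-scaled.

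The edgeR 4.0.16 quasi-likelihood test (R 4.3.3) was fitted on all 8 libraries. DE required an FDR (Benjamini-Hochberg) below 0.05 and an FC of at least 1.5. For the library-wise tests each WT library after adhesion formed a group of 1, assumed to vary like the other conditions. Among these, both E6 conditions pair a 24 h with a 12 h library. In these tests the culture time covariate therefore rests on E6 alone, where culture time follows the replicate number. The scripts were tested on simulated counts. DESeq2 1.42.0, limma 3.58.1, other size factors, a GC correction, the replicate number, culture time, the low-count filter and leaving out each WT library were tried as alternatives. The genes named are those the study names, the 12 highest and 12 lowest by the smaller of the differences of both libraries after adhesion (log2 CPM averaging 2 or more), the 6 that differed most in each direction between these libraries, and up to 4 per gene list. Other list members with extreme or absent values were named after their values were seen. The gene lists, the alternatives and the choice of libraries were made with earlier results of these data known. Promoters and their coordinates came from RefSeq (GRCm38.p6), and transcript length and GC content of genes from GENCODE.

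Same-numbered WT libraries deviated together with r = 0.222, and the other pairs of conditions gave r between -0.079 and 0.023 over 9768 genes, so the numbers were not taken to pair the samples.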

Additional observations from a re-analysis of the deposited data

Results flagged for a closer look

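In 5 of the 112 genes picked for the text both WT libraries moved one way after adhesion and both E6 libraries the other. How many of all tested genes did so was not counted. Non-overlap was common over all tested genes, with 16.6% above and 14.5% below in WT, and 23.6% and 31.5% in E6. Fosb, an AP-1 subunit, was at 6.26 and 7.37 CPM before and 8.16 and 9 CPM after adhesion in WT, against 17.9 and 23.4 CPM before and 15 and 10 CPM after adhesion in E6, a difference of the effects (E6 minus WT) of -1.06 on the log2 scale. For Bnip3, a mitophagy receptor, the difference was -1.12, with 21.7 and 20.9 CPM before and 26.8 and 38.9 CPM after adhesion in WT. P4ha2 gave -1.37 and Ltbr -0.31, both above the libraries before adhesion in WT and below them in E6. Doc2g went the other way, with a difference of 1.14. None of the 5 passed the edgeR test of the difference over all genes, in which the smallest FDR was 0.988.

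Outside the gene counts, replicate 1 of WT after adhesion had 15.2% of its reads on no gene and 17.5% aligned to more than 1 place, both above the other 3 WT libraries (8.26% to 10.3%, and 12.2% to 12.7%).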

How the results depend on the processing

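The count of DE mRNAs of the combined WT test went from 0 to 64 with DESeq2 and 2 with limma-voom with quality weights. Without replicate 1 after adhesion it was 207 and without replicate 2 after adhesion 3550, and the difference of the effects (E6 minus WT) went from 0 to 3 with DESeq2, 145 without replicate 1 after adhesion and 3049 without replicate 2. The 215 genes of replicate 2 became 552 with no FC limit, 95 with DESeq2, 9 with no filter on low counts and 116 among genes of at least 1 CPM before adhesion, and leaving out a library before adhesion gave 69 (without replicate 1) to 137 (without replicate 2). With no FC limit replicate 1 had 6846 and the comparison of both libraries after adhesion 6688. The E6 count of 234 fell to 142 with culture time as a covariate. The limit to at least 1 CPM and the replicate block joined with the GC correction were chosen after seeing the data.

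With the replicate number as a block, replicate 2 had 174 genes against 215 and E6 132 against 234; with block and GC correction replicate 2 had 100 and the comparison of both libraries after adhesion 2304. The numbers share no stated culture or day, so these fits rest on the number alone.

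Lars2 ranged from -2.45 to 0.14 on the log2 scale over the leave-one-out fits of the combined test, above 0 without replicate 2 before adhesion. No other of the 24 ranked genes changed sign in the 336 values computed. Among 112 genes of the text, 167 of 1173 alternatives of a called library-wise value lost the call and 0 reversed it. Without the filter on low counts 52 of the 58 calls in replicate 2 were lost, and GC correction ended 7 of 76 in replicate 1, Junb and Tnfaip3 among them, and 10 in replicate 2. Of the 58 calls in replicate 2, 17 were lost with DESeq2 and 12 with culture time as a covariate. The calls of Hmox1, Jun, Nfkbie and Zfp36 held under all 9 alternatives in both libraries. The call of Hes1 in replicate 1 was lost in 7 of 9.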
